A study of Homo sapiens with 6 samples.

Results

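The aldehyde dehydrogenase genes described here were measured by RNA-seq in H2122, a line of human lung adenocarcinoma cells, transfected with LYCAT shRNA or control shRNA; LYCAT is an older symbol for LCLAT1. The 10 genes, taken by symbol from the 23368 rows of the deposited count table, were ALDH1A1, ALDH1A3, ALDH1B1, ALDH2, ALDH3A1, ALDH3A2, ALDH3B1, ALDH4A1, ALDH7A1 and ALDH9A1, and all 10 had a row. They were chosen by family membership and by their CPM in these same libraries, so the difference between the groups is given for them as a description and supports nothing. There were 3 libraries of H2122 cells 48 hours after transfection with LYCAT shRNA and 3 at the same time with control shRNA. Whether each library is its own culture is not stated in the labels. The p-values therefore rest on library-to-library spread, which may be technical. The labels name no more than 1 kind of shRNA against LYCAT, in 1 cell line, and effects of that shRNA other than on LCLAT1 cannot be told apart from those of lower LCLAT1. In bulk libraries, fewer cells with a transcript and less of it per cell cannot be told apart either.

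Aldehyde dehydrogenases oxidise aldehydes to carboxylic acids with NAD or NADP as the electron acceptor. Some make signalling molecules, such as retinoic acid from retinaldehyde, some take part in the breakdown of amino acids, choline or sphingolipids, and some remove reactive aldehydes that arise from ethanol or from peroxidised lipids. High aldehyde dehydrogenase activity, to which ALDH1A1, ALDH1A3 and ALDH3A1 are known to contribute, is used to sort tumour cells with stem cell traits, in lung cancer among others.

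The promoter windows of 4 of the genes are shown as examples. In the fit of all 6 libraries ALDH1A3 and ALDH1B1 were higher with LYCAT shRNA and ALDH3A2 was lower. ALDH1A1 was close to 0 counts. With 1 library left out, ALDH1B1 kept its call in 2 of 6 fits and ALDH3A2 in 1 of 6. ALDH3A1, also lower, had no matched window. Whether the motifs have a part in the levels was not tested. Each window is 300 bases from RefSeq on GRCh38.p14, with 250 bases before the annotated start, printed along the gene's own strand. Capitals mark 3 motifs on either strand. The first is the GC box, with the letters GGGCGG. The second is the box named CCAAT after its letters. The last is the core of the xenobiotic response element, with the letters GCGTG. The windows lie at chr15:100879581-100879880 (plus strand, ALDH1A3), chr9:38392452-38392751 (plus strand, ALDH1B1), chr17:19648501-19648800 (plus strand, ALDH3A2, the downstream one of its annotated starts) and chr9:72953004-72953303 (minus strand, ALDH1A1).
ALDH1A3: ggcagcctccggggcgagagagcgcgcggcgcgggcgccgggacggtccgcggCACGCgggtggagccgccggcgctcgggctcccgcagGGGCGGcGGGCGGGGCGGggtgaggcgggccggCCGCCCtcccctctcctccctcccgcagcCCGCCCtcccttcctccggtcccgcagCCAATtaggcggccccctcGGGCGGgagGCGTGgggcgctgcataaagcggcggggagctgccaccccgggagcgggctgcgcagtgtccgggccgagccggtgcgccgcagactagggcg
ALDH1B1: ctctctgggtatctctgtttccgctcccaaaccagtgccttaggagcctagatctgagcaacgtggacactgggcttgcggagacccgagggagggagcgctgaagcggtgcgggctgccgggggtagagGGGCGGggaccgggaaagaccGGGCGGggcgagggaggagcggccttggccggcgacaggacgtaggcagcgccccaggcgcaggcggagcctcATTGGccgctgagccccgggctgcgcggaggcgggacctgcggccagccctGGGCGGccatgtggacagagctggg
ALDH3A2: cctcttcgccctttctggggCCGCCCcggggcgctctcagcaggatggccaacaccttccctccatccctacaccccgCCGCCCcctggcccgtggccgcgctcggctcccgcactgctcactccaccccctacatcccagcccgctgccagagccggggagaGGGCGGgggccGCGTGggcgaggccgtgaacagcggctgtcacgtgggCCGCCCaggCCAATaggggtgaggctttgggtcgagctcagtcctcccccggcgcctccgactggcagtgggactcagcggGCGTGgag
ALDH1A1: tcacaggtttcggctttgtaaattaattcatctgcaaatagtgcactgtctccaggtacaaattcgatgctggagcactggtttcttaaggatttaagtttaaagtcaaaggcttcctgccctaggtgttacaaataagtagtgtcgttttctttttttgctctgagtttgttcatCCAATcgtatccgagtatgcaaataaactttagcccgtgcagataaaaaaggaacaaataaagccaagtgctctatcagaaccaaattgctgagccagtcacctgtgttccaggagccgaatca

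The ALDH1A3 window was 81.7% G or C and held 6 GC boxes, of which those at -153 and -148 from the start share a base, a CCAAT box at -71 and 2 GCGTG cores at -197 and -43. The ALDH3A2 window shown was 73.3% G or C and held 4 GC boxes and a CCAAT box at -30. It also held 2 GCGTG cores, at -76 and at 43 bases downstream of the start. The window at the upstream annotated start of ALDH3A2, not shown, was 55.0% G or C and held none of the motifs searched. The ALDH1B1 window was 71.3% G or C, with 3 GC boxes and a CCAAT box at -26. The ALDH1A1 window was 40.3% G or C, against a median of 58.7% over all 35116 RefSeq windows of this length, and of the motifs searched it held only a CCAAT box, at -74. RefSeq windows were matched for 8 of the 10 genes, 11 windows in all, and not for ALDH2 and ALDH3A1. Of these 11 windows 7 held a GC box, 5 a CCAAT box, 2 a GCGTG core, 0 a TATA box (TATAAA) and 0 an antioxidant response element core (TGACNNNGC). Among all windows the shares were 45.0% for the GC box, 34.6% for the CCAAT box, 36.5% for the GCGTG core, 11.5% for the TATA box and 13.3% for the antioxidant response element core.

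The libraries held 3118946 to 4730453 counts with LYCAT shRNA and 4075367 to 4930079 with control shRNA, so 3 counts stood for 0.608 to 0.968 CPM (counts per 1000000 after TMM scaling). LCLAT1, the target of the shRNA, stood at 18.9, 22.6 and 23.6 CPM with LYCAT shRNA and at 56.8, 61.2 and 65.3 CPM with control shRNA (log2 fold change -1.50, SE 0.114, edgeR adjusted p = 1.15e-18). The exact two-sided permutation test gave p = 0.1, the smallest that 3 against 3 libraries allow. Of 8 epithelial markers 7 were abundant enough to test, and KRT7, KRT8, KRT18 and CDH1 fell. The 8 summed to 1802 to 1848 CPM with LYCAT shRNA and to 1996 to 2067 CPM with control shRNA. Whether this has a part in the results was not tested. Of 14 markers of blood, endothelium and fibroblasts 5 (PTPRC, CD3E, CD79A, PECAM1 and CDH5) were at 0 in every library. The 14 markers summed to 24.5 to 41.0 CPM with LYCAT shRNA and to 89.0, 133 and 34.2 CPM in control libraries 1 to 3, mostly from collagen genes, and whether this has a part in the results was not tested either. The results are therefore also given without control libraries 1 and 2, where the spread of the single remaining control library is taken from the LYCAT shRNA group. Of 11097 genes tested, 19.1% passed an adjusted p under 0.05 (9.81% higher and 9.26% lower with LYCAT shRNA), and the median log2 fold change of all was -0.01.

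The 10 genes spanned a wide range of levels. On a scale of CPM per kilobase of annotated exon, ALDH9A1 was the most abundant, with 42.3 ± 0.497 with LYCAT shRNA and 47.3 ± 3.68 with control shRNA (SD, n = 3 each). ALDH3A2 followed in control cells with 25.8 ± 0.570 (LYCAT shRNA) and 29.0 ± 0.231 (control shRNA), then ALDH1B1 with 28.3 ± 1.22 (LYCAT shRNA) and 24.3 ± 1.75 (control shRNA). On this scale ALDH1B1 stood above ALDH3A2 in all 3 LYCAT shRNA libraries. That order rests on the exon length used. Not divided by length, ALDH3A2 averaged 167 CPM and ALDH1B1 89.4 CPM with LYCAT shRNA, and their coding exons cover 1775 and 1551 bases. ALDH2 had 13.3 ± 0.811 CPM per kilobase with LYCAT shRNA and 14.0 ± 1.66 with control shRNA. ALDH3A1 had 6.58 ± 0.817 with LYCAT shRNA and 9.86 ± 0.845 with control shRNA. ALDH7A1 had 5.55 ± 0.197 with LYCAT shRNA and 6.19 ± 0.190 with control shRNA. The least abundant 4 genes, ALDH3B1, ALDH4A1, ALDH1A3 and ALDH1A1, were under 3 CPM per kilobase in every library.

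In the control libraries the values of neighbours in this order did not overlap, except those of ALDH3B1 (1.92 ± 0.263) and ALDH4A1 (1.92 ± 0.386 CPM per kilobase, SD, n = 3). In LYCAT shRNA cells the values of ALDH1A3 (1.63 ± 0.328), ALDH4A1 (1.42 ± 0.0978) and ALDH3B1 (1.38 ± 0.266 CPM per kilobase, SD, n = 3 each) overlapped, while in control cells ALDH1A3 was below both others in every library. The order depends on the length used. By coding length ALDH3A2 came before ALDH9A1 and ALDH7A1 moved up to number 4, since its annotated exons cover 17970 bases over 37 transcripts while its coding exons cover 1899. ALDH9A1, ALDH3A2 and ALDH1B1 made up 33.5%, 20.4% and 22.4% of the summed level per length with LYCAT shRNA, and 34.9%, 21.4% and 17.9% with control shRNA.

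**Figure D1:**
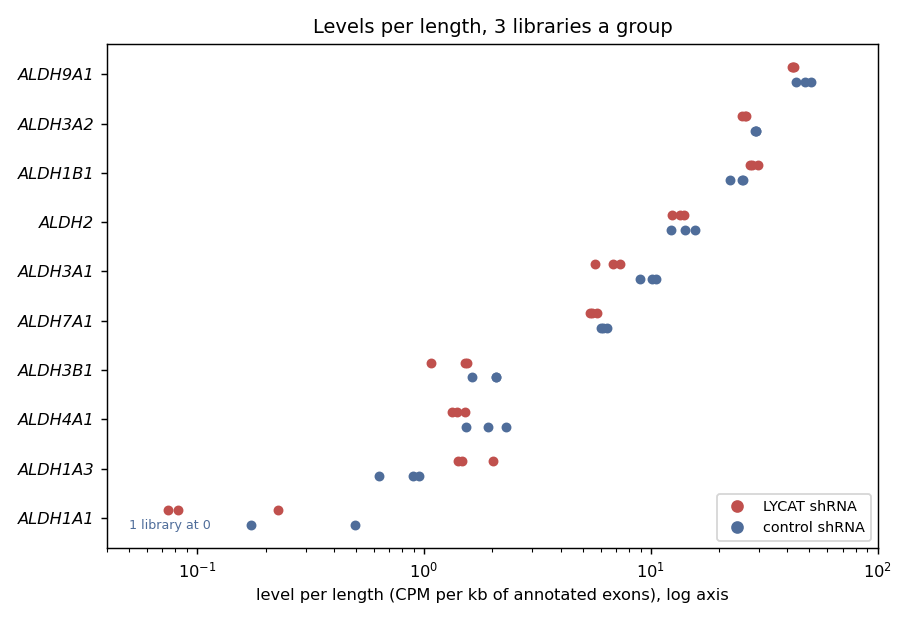
Level of each of the 10 genes in CPM per kilobase of annotated exon, on a log axis, with 1 point per library (LYCAT shRNA above, control shRNA below in each row). ALDH9A1, ALDH3A2 and ALDH1B1 lie above 20, and ALDH1A1 lies below 1 with 1 control library at 0.

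Summed over the 10 genes, the level was 679, 665 and 680 CPM with LYCAT shRNA and 733, 712 and 750 CPM with control shRNA. The LYCAT shRNA libraries were all below the control libraries, and the ratio of the means was 0.922. Of the 10 genes, 9 passed the filter on low counts, and ALDH1A1 did not. Among these 9, 2 passed as higher with LYCAT shRNA (ALDH1A3 and ALDH1B1), 2 as lower (ALDH3A1 and ALDH3A2) and 5 did not pass, where 19.1% of all tested genes passed. The fold change was below 0 on the log2 scale in 7 and above 0 in 2, with a median of -0.16. The groups did not overlap in 8 of the 9, lower in 6 and higher in 2, where they did not overlap in 32.8% of all tested genes. Since the genes were picked with these values known, nothing is read from these counts.

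**Figure D2:**
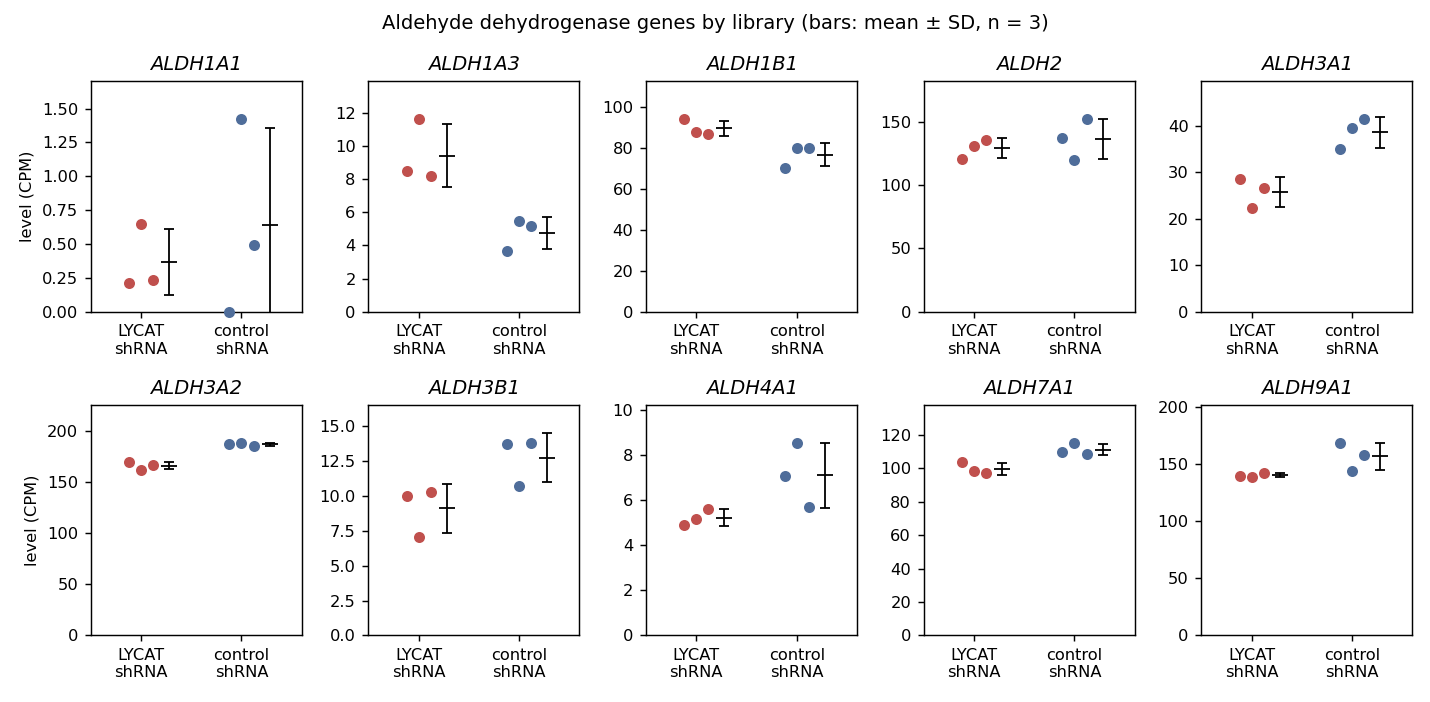
Level in CPM of each of the 10 genes in every library, LYCAT shRNA left and control shRNA right, with the mean ± SD of 3 libraries beside the points. The groups are apart for ALDH1A3 (higher with LYCAT shRNA) and ALDH3A1 (lower) and overlap for ALDH2 and ALDH1A1, where the SD of the control group reaches below 0 and is cut at the axis.

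ALDH1A1 and ALDH1A3 make retinoic acid from retinaldehyde in the cytosol. ALDH1A1 was counted 1, 2 and 1 times with LYCAT shRNA and 0, 7 and 2 times with control shRNA. Only control library 2 was above 3 counts, and no fold is given at this depth. ALDH1A3 stood at 8.51, 11.6 and 8.17 CPM with LYCAT shRNA and at 3.64, 5.47 and 5.17 CPM with control shRNA. Every LYCAT shRNA library was above every control library. The log2 fold change was 0.95 (SE 0.253), or 1.94-fold. This gene rests on 35 to 40 counts with LYCAT shRNA and 17 to 27 with control shRNA. The coefficient of variation between libraries was 20.1% with LYCAT shRNA and 20.6% with control shRNA. Counting alone gives 16.4% for LYCAT shRNA and 21.5% for control shRNA. Leaving out 1 library at a time gave 0.79 to 1.08, and without control libraries 1 and 2 the value was 0.83 and did not pass.

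ALDH2 and ALDH1B1 are mitochondrial and oxidise acetaldehyde and other short aldehydes. ALDH2 stood at 120, 131 and 136 CPM with LYCAT shRNA and at 137, 120 and 152 CPM with control shRNA, and the groups overlapped. Its log2 fold change was -0.08 (SE 0.0715), did not pass, and was 0.01 without control replicate 3. ALDH1B1 stood at 93.8, 87.7 and 86.6 CPM with LYCAT shRNA and at 70.3, 79.7 and 80.0 CPM with control shRNA. The groups did not overlap, with the lowest control library the one numbered 1. ALDH1B1 was 1.17-fold higher (log2 0.23, SE 0.0806). It passed in the fit of all 6 libraries, and when control replicate 2 or 3 was left out. It did not pass without control replicate 1 (log2 0.17) or without LYCAT shRNA replicate 1, 2 or 3 (0.19, 0.24 and 0.25), nor with library totals as the scaling (0.21) or with DESeq2 (0.23). Without control libraries 1 and 2 the value was 0.16 and did not pass.

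ALDH3A1, ALDH3A2 and ALDH3B1 belong to class 3, which oxidises fatty and aromatic aldehydes. The genes ALDH3A1 and ALDH3A2 lie on chromosome 17 with 1 protein-coding gene, SLC47A2, between them in the RefSeq order. ALDH3A1 is a cytosolic enzyme abundant in the cornea and known to be induced through the aryl hydrocarbon receptor in liver cells and to be high in many lung tumours. It stood at 28.5, 22.3 and 26.6 CPM with LYCAT shRNA and at 34.9, 39.5 and 41.4 CPM with control shRNA. All 3 LYCAT shRNA libraries were below the control libraries. The log2 fold change was -0.56 (SE 0.120), or 1.47-fold lower. It was -0.64 to -0.48 with 1 library left out and -0.66 without control libraries 1 and 2, and it passed under every setting tried. Its counts were 134, 69 and 114 with LYCAT shRNA and 163, 195 and 168 with control shRNA.

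ALDH3A2, the fatty aldehyde dehydrogenase of the endoplasmic reticulum, lost in Sjögren-Larsson syndrome, had 170, 163 and 167 CPM with LYCAT shRNA and 188, 189 and 186 CPM with control shRNA. The spread within the control group, 0.797%, was below the 3.42% that counting alone gives. The log2 fold change was -0.17 (SE 0.0607), or 1.12-fold lower. ALDH3A2 passed in the fit of all 6 libraries, and with 1 left out only when that was control replicate 2. It missed the threshold when any of the other 5 was left out, among them every LYCAT shRNA library (log2 -0.18 to -0.15), with DESeq2 (-0.17) or with no filter on low counts (-0.16). Without control libraries 1 and 2 its value was -0.15 and did not pass. ALDH3B1, which acts on aldehydes from lipid peroxidation, had 9.99, 7.10 and 10.3 CPM with LYCAT shRNA and 13.7, 10.7 and 13.8 CPM with control shRNA. Its groups lay next to each other without overlap, and its log2 fold change of -0.45 (SE 0.200) did not pass.

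ALDH4A1, ALDH7A1 and ALDH9A1 act in the metabolism of amino acids, choline and carnitine. ALDH4A1, the mitochondrial enzyme that turns pyrroline-5-carboxylate from proline into glutamate, had 4.89, 5.16 and 5.61 CPM with LYCAT shRNA and 7.07, 8.51 and 5.66 CPM with control shRNA. Control library 3 was almost level with the LYCAT shRNA libraries. The log2 fold change of -0.45 (SE 0.261) did not pass, and was -0.30 without control replicate 2 and -0.12 without control libraries 1 and 2. ALDH7A1, or antiquitin, which acts in lysine breakdown and makes betaine, had 104, 98.4 and 97.2 CPM with LYCAT shRNA and 110, 115 and 109 CPM with control shRNA. Its log2 fold change was -0.16 (SE 0.0724) and did not pass. ALDH9A1, which acts in carnitine synthesis, had 139, 139 and 142 CPM with LYCAT shRNA and 168, 144 and 157 CPM with control shRNA. The lowest control library lay just above the LYCAT shRNA group. The log2 fold change was -0.16 (SE 0.0658), which did not pass with all libraries and passed without control replicate 2 (-0.22). Without control replicate 1 it was -0.10 and did not pass.

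**Figure D3:**
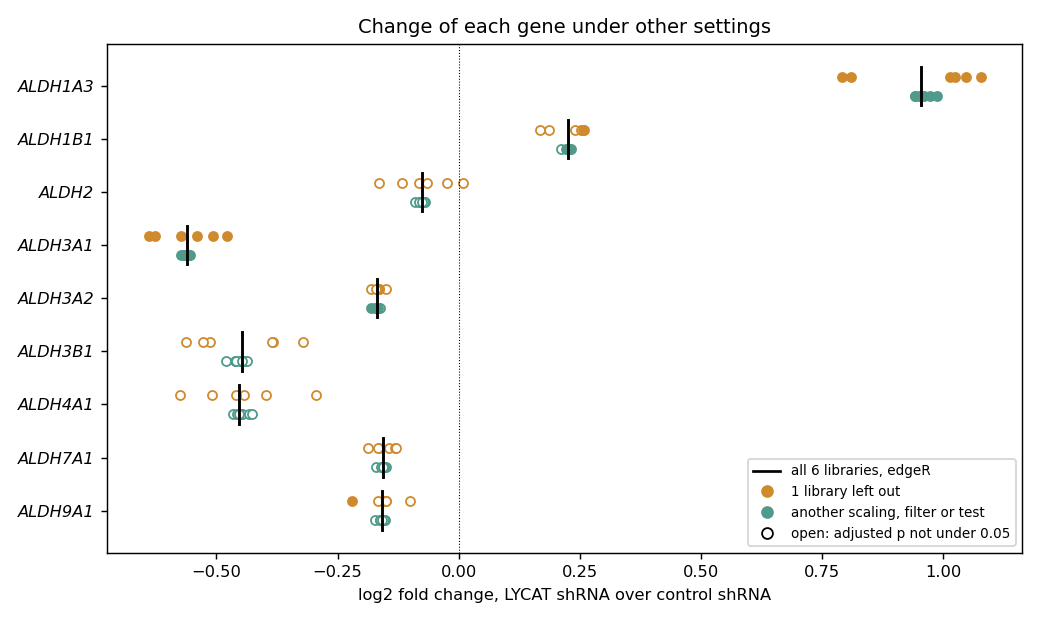
Log2 fold change, LYCAT shRNA over control shRNA, of the 9 tested genes with all 6 libraries (bar), with 1 library left out (upper points) and with another scaling, filter or test (lower points), where open points did not reach an adjusted p under 0.05; the setting without control libraries 1 and 2 is not drawn. All drawn points of ALDH1A3 and ALDH3A1 are filled, while ALDH1B1 and ALDH3A2 have both kinds.

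The remaining 9 genes of the superfamily, left over by the choice of the 10, were all in the table. Of these, 6 were tested and 2 fell with LYCAT shRNA, where 9.26% of all tested genes fell. The median log2 fold change of the 6 was -0.21, against -0.01 for all genes. This list too was chosen with earlier results of these data known, so nothing is read from its counts or median. ALDH1L2, the mitochondrial 10-formyltetrahydrofolate dehydrogenase of the folate pathway, had 6.17, 4.84 and 5.37 CPM with LYCAT shRNA and 13.7, 13.2 and 13.8 CPM with control shRNA. No library of one group came near the other, and ALDH1L2 fell 2.44-fold (log2 -1.29, SE 0.218, edgeR adjusted p = 3.55e-06). It passed with each library left out, at -1.39 to -1.22. ALDH16A1, a member whose human protein lacks the catalytic cysteine, had 43.4, 41.3 and 45.3 CPM with LYCAT shRNA and 55.3, 51.9 and 52.2 CPM with control shRNA. It fell 1.22-fold (log2 -0.29, SE 0.0993, edgeR adjusted p = 0.0294). With 1 library left out this gene passed only without control replicate 2; without any of the other 5 (control replicates 1 and 3 and LYCAT shRNA replicates 1, 2 and 3) the edgeR adjusted p was 0.0519 to 0.114, and with DESeq2 the adjusted p was 0.13.

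ALDH5A1, which oxidises succinic semialdehyde from GABA, averaged 31.5 ± 1.63 CPM with LYCAT shRNA and 34.2 ± 0.853 CPM with control shRNA (SD, n = 3 each), and its log2 fold change of -0.13 did not pass. ALDH6A1, of valine breakdown, had a log2 fold change of -0.37 (SE 0.241), which was -0.15 without LYCAT shRNA replicate 1 and -0.20 without control replicate 1. ALDH18A1, which makes pyrroline-5-carboxylate from glutamate in proline synthesis, had one of 0.02 (SE 0.110). ALDH1L1, the cytosolic counterpart of ALDH1L2, averaged 4.11 ± 1.37 CPM with LYCAT shRNA and 3.61 ± 1.87 CPM with control shRNA. None of these 4 passed. ALDH1A2, ALDH3B2 and ALDH8A1 had 0 to 2 counts in every library and were not tested. ALDH3B2 is a close paralog of ALDH3B1, which had 22 to 64 counts in each library. Whether reads were split between these paralogs in counting was not tested.

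**Figure D4:**
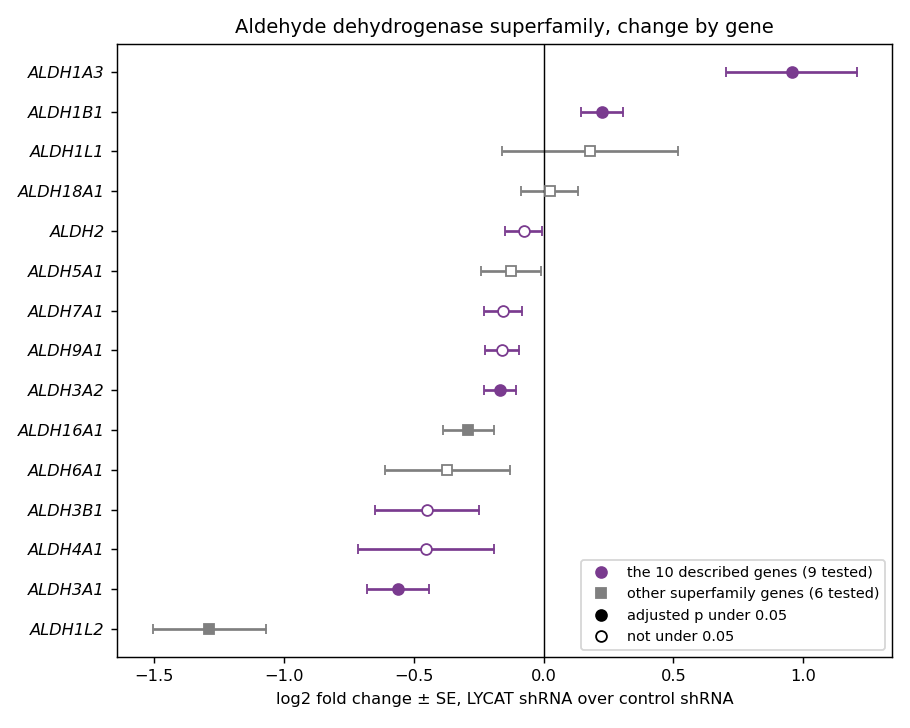
Log2 fold change ± SE, LYCAT shRNA over control shRNA, of the 15 tested genes of the superfamily, with circles for the described genes and squares for the others, filled where the adjusted p was under 0.05. ALDH1A3 lies highest at 0.95 and ALDH1L2 lowest at -1.29.

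Genes around the retinaldehyde step of ALDH1A3 changed in both directions. Of 20 genes of retinoid synthesis, binding and breakdown 10 were tested, 4 rose and 1 fell. The list median of the log2 fold change was 0.29. Among all tested genes 9.81% rose and 9.26% fell, and these shares stand beside the counts of each list below too. All these lists were chosen with earlier results of these data known, so nothing is read from their counts. DHRS3, which reduces retinaldehyde back to retinol, had 32.1, 27.7 and 33.9 CPM with LYCAT shRNA and 22.9, 21.3 and 16.5 CPM with control shRNA. The groups were apart, and DHRS3 rose 1.54-fold (log2 0.63, SE 0.134, edgeR adjusted p = 0.000258). RDH10, which makes retinaldehyde from retinol, rose 1.52-fold (log2 0.60, SE 0.163, edgeR adjusted p = 0.00457), though it did not pass without control libraries 1 and 2 (0.64, edgeR adjusted p = 0.0746). RDH13, a mitochondrial retinol dehydrogenase, rose 1.43-fold, with an edgeR adjusted p of 0.00682 and 0.0756 without LYCAT shRNA replicate 2, and a DESeq2 adjusted p of 0.0523.

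STRA6, the membrane receptor for retinol uptake, had 8.08, 14.8 and 9.81 CPM with LYCAT shRNA and 21.4, 20.3 and 22.4 CPM with control shRNA. It fell 2.03-fold (log2 -1.02, SE 0.176, edgeR adjusted p = 5.79e-06), and LYCAT shRNA library 2 was the nearest to the control group. Of 10 retinoic acid receptors and known targets 5 were tested, and 1 rose and 1 fell, with a median of -0.002. Of the 5, TGM2 was the only target, and the others were receptor genes. RARB, RARRES1, RARRES2 and RARRES3, named after their values were seen, did not pass the filter on low counts. TGM2, a transglutaminase known to be induced by retinoic acid, had 7.87, 10.3 and 11.7 CPM with LYCAT shRNA and 3.86, 3.85 and 2.96 CPM with control shRNA, and rose 2.75-fold (log2 1.46, SE 0.264, edgeR adjusted p = 1.51e-05). The receptor gene RXRA fell 1.18-fold (edgeR adjusted p = 0.0276). With replicate 2 or 3 of either group left out the edgeR adjusted p was 0.0946 to 0.14, and with DESeq2 the adjusted p was 0.123.

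Among 21 genes of alcohol oxidation and aldehyde production, of which 20 were found by symbol, 6 were tested and 2 fell. SAT1, which acetylates polyamines, had 1163, 1125 and 1180 CPM with LYCAT shRNA and 1633, 1425 and 1479 CPM with control shRNA. It fell 1.31-fold (log2 -0.39, SE 0.0439, edgeR adjusted p = 4e-11). CAT, catalase, fell 1.31-fold (edgeR adjusted p = 0.00531), but did not pass without LYCAT shRNA replicate 1 (0.0867), without control replicate 2 (0.0831) or with DESeq2 (adjusted p = 0.0538). The list median was -0.23.

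Of 14 genes for other routes of aldehyde removal, all tested, 1 rose and 3 fell, with a median of 0.001. AKR1B1, an aldose reductase, rose 1.40-fold to 669 ± 22.1 CPM with LYCAT shRNA, against 480 ± 6.12 CPM with control shRNA (log2 0.48, SE 0.0467, edgeR adjusted p = 7.41e-14). Its relative AKR1B10, a retinaldehyde reductase, was at 124 ± 13.0 CPM with LYCAT shRNA and 364 ± 14.5 CPM with control shRNA, and fell 2.92-fold (SD, n = 3 each; edgeR adjusted p = 9.57e-35). GSTP1, a glutathione transferase, fell 1.16-fold and PTGR1, which reduces lipid enones and enals, 1.12-fold. PTGR1 did not pass without control replicate 3 (edgeR adjusted p = 0.0792).

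Near ALDH4A1, of 9 genes of proline breakdown and synthesis 6 were tested and 1 fell: PYCR1, which makes proline, 1.28-fold, with 98.3 ± 8.98 CPM with LYCAT shRNA and 127 ± 8.81 CPM with control shRNA (edgeR adjusted p = 0.000124). Near ALDH7A1 and ALDH9A1, of 13 genes of lysine, choline and carnitine metabolism 6 were tested, 1 rose and 2 fell, with a median of -0.20. AASS, the first enzyme of lysine breakdown, was at 52.5, 58.7 and 46.9 CPM with LYCAT shRNA and at 68.6, 69.3 and 75.1 CPM with control shRNA, and fell 1.35-fold (edgeR adjusted p = 0.000206). DHTKD1, a later lysine enzyme, was at 78.5, 87.7 and 70.8 CPM with LYCAT shRNA and at 121, 121 and 119 CPM with control shRNA, and fell 1.53-fold (edgeR adjusted p = 7.09e-10). For both genes each LYCAT shRNA library was below each control library.

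CHDH, which makes betaine aldehyde from choline, rose 1.39-fold (edgeR adjusted p = 0.0352). Leaving out replicate 2 of either group kept it under the threshold, while leaving out replicate 1 or 3 of either group gave an edgeR adjusted p of 0.0618 to 0.217, and DESeq2 gave an adjusted p of 0.161. Near ALDH3A2, of 10 genes of fatty aldehyde and sphingosine 1-phosphate metabolism 8 were tested, 1 rose and 1 fell, with a median of -0.19. SPHK1, a sphingosine kinase, rose 1.29-fold (edgeR adjusted p = 0.00379; 0.0785 without LYCAT shRNA replicate 1 and 0.0639 without control replicate 1). HSD17B4, a peroxisomal enzyme of fatty acid oxidation, fell 1.24-fold to 83.2 ± 1.38 CPM with LYCAT shRNA, against 103 ± 2.37 CPM with control shRNA (edgeR adjusted p = 0.00125). SGPL1, the lyase whose aldehyde product ALDH3A2 oxidises, named after its value was seen, averaged 25.9 ± 1.27 CPM with LYCAT shRNA and 29.3 ± 3.41 CPM with control shRNA (SD, n = 3 each) and did not pass.

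NRF2 and the aryl hydrocarbon receptor are transcription factors of the response to oxidants and xenobiotics, and both are known to act on ALDH3A1. Of 20 of their regulators and known targets 18 were tested, 1 rose and 7 fell, where 9.81% of all tested genes rose and 9.26% fell; the other 10 missed the threshold and the list median was -0.11. SRXN1, sulfiredoxin, fell 1.23-fold (edgeR adjusted p = 2.6e-07) and the cystine transporter gene SLC7A11 1.17-fold (edgeR adjusted p = 0.000141). MAFK, a small MAF partner of NRF2, rose 1.25-fold (edgeR adjusted p = 0.00314; 0.0547 without LYCAT shRNA replicate 2). The genes of the factors themselves are named after their values were seen. AHR averaged 8.37 ± 3.06 CPM with LYCAT shRNA and 8.38 ± 1.69 CPM with control shRNA (SD, n = 3 each) and did not pass. NFE2L2, which encodes NRF2, averaged 86.1 ± 1.75 CPM with LYCAT shRNA and 99.3 ± 6.72 CPM with control shRNA and only just passed (log2 -0.21, edgeR adjusted p = 0.0486). Without 1 library it passed only when control replicate 2 was the one left out, and the edgeR adjusted p without each of the other 5 (control replicates 1 and 3, LYCAT shRNA replicates 1, 2 and 3) was 0.0529 to 0.255. It also missed the threshold with DESeq2 (adjusted p = 0.174), limma-voom (0.0579), DESeq2 size factors (0.0507), no filter on low counts (0.0724) and no robust fit (0.0531). The targets of the aryl hydrocarbon receptor CYP1A1, CYP1B1 and TIPARP are also named after their values were seen. CYP1A1 did not pass the filter on low counts. CYP1B1 averaged 61.8 ± 4.98 CPM with LYCAT shRNA and 65.2 ± 2.07 CPM with control shRNA (log2 -0.08). TIPARP averaged 12.8 ± 0.071 CPM with LYCAT shRNA and 11.4 ± 2.96 CPM with control shRNA (log2 0.17). Neither CYP1B1 nor TIPARP passed. With 1 library left out, 4 to 9 genes of this list passed. The lowest count was without LYCAT shRNA replicate 2, and 5 passed without LYCAT shRNA replicate 1, LYCAT shRNA replicate 3 or control replicate 3.

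Of 8 surface and stem cell markers that are measured beside aldehyde dehydrogenase activity, 4 were tested and 1 rose. The other tested markers, named after their values were seen, were ITGA6 (log2 0.19), CD24 (-0.14) and ABCG2 (-0.11), and none of them passed. CD44, a hyaluronan receptor, had 132, 130 and 135 CPM with LYCAT shRNA and 82.7, 71.8 and 76.6 CPM with control shRNA, and rose 1.72-fold (log2 0.78, SE 0.0742, edgeR adjusted p = 2.97e-14). PROM1, LGR5, BMI1 and THY1, named after their values were seen, did not pass the filter on low counts. Beside RDH10, the genes ALDH16A1, RXRA, CAT, CHDH, SPHK1, HSD17B4 and NFE2L2 missed the threshold without control libraries 1 and 2, with edgeR adjusted p-values of 0.0742 (HSD17B4) to 0.489 (NFE2L2).

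**Figure D5:**
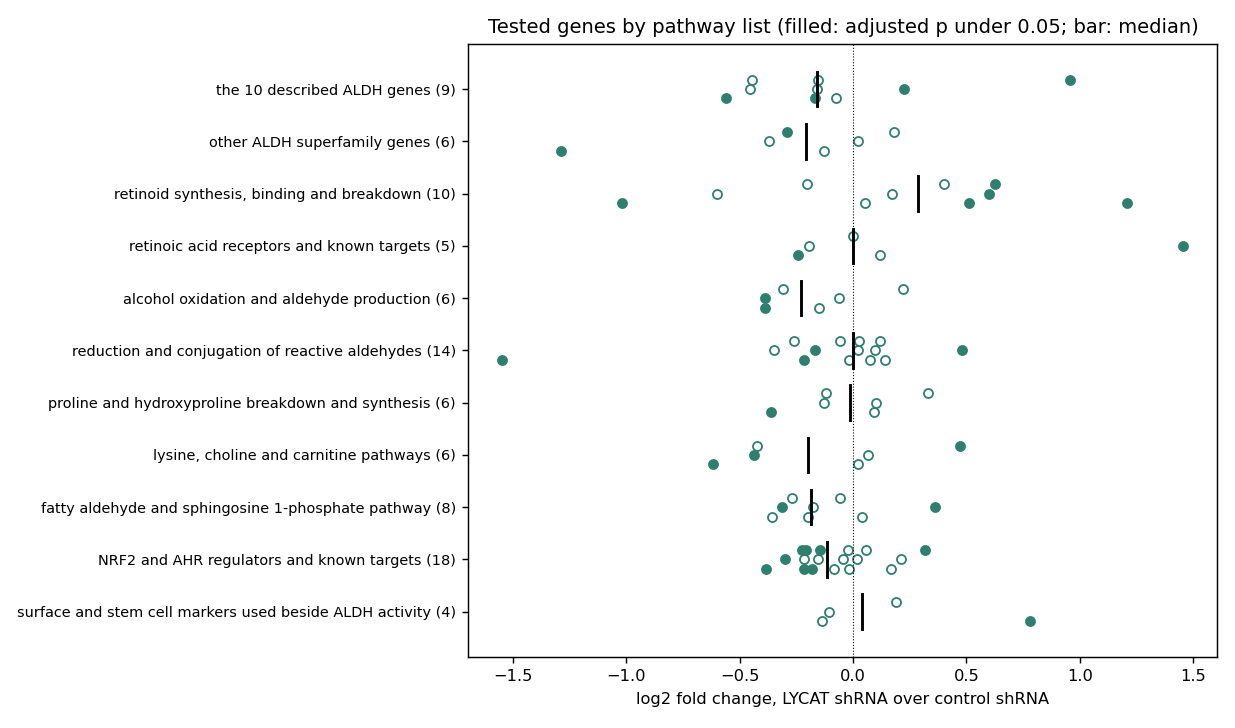
Log2 fold change, LYCAT shRNA over control shRNA, of the tested genes of each list (number in brackets), filled where the adjusted p was under 0.05, with the list median as a bar. Of the genes drawn, TGM2 lies highest (1.46) and AKR1B10 lowest (-1.55); the marker genes of other cell types are not drawn.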

How the data were processed

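RNA-seq counts were analysed for 6 libraries of H2122 cells, 3 with LYCAT shRNA and 3 with control shRNA. The authors deposited whole-number counts per gene symbol, not normalised. bcl2fastq 2.17, BWA 0.7.15, featureCounts 1.5.1 and Bowtie2 and the builds hg19 and mm10 are named per the submitters' processing notes; the role of each and the use of strand are not given in the sources used here.

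All genes were fitted together with edgeR 4.0.16 in R 4.3.3 (filterByExpr, TMM, robust quasi-likelihood F test), with Benjamini-Hochberg adjusted p-values over the 11097 genes tested, which hold 99.77% of the counts. "Passed" means an adjusted p under 0.05. The SE is the log2 fold change divided by the square root of F. The script was tested on simulated data. Levels per length used GENCODE v29 exons on GRCh38, a build other than those in the notes, for lengths alone. Alternatives used limma 3.58.1 and DESeq2 1.42.0. The genes and lists were chosen with earlier results of these data known; the GC, CCAAT and TATA motifs and the setting without control libraries 1 and 2 were added after seeing the data. Named were LCLAT1, all superfamily genes and, from each list, the top gene by adjusted p in either direction plus up to 2 more that passed; the cell type markers are a list of their own, others are marked in the text, and some genes under this rule are not reported here. Library totals limit precision, and 3 counts was the floor.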

Additional observations from a re-analysis of the deposited data

How the results depend on the processing

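Over all genes, DESeq2 called 635 higher and 558 lower with LYCAT shRNA, and the fit without control replicates 1 and 2 together called 573 higher and 556 lower, against 1089 and 1028. With 1 library left out the counts were 742 to 1128 higher and 700 to 1100 lower. Of the 10 described genes, 1 to 2 were higher and 1 to 3 lower with 1 library left out. With DESeq2 it was 1 higher and 1 lower, with library totals 1 was higher, with no filter on low counts 1 was lower, and without control replicates 1 and 2 together 0 were higher and 1 was lower. For the other superfamily genes, DESeq2 and the setting without control replicates 1 and 2 together each called 1 gene, and leaving out 1 library gave 1 to 2. These 2 settings each called 3 genes of the retinoid list, 1 of the retinoic acid receptors and targets and 1 of alcohol oxidation, and 0 of the fatty aldehyde list were called without control replicates 1 and 2 together. With no filter 2 stem cell and surface markers were called, 1 higher and 1 lower with LYCAT shRNA. Of the markers that the filter removed, THY1 held the most counts, 3, 2 and 1 with LYCAT shRNA. In control libraries 1 to 3 THY1 had 22, 10 and 2 counts, so most of them lay in control libraries 1 and 2. With 1 library left out, the calls were 4 to 5 for retinoid synthesis, 1 to 2 for retinoic acid receptors, 1 to 2 for alcohol oxidation, 3 to 4 for reduction, 1 to 2 for proline, 2 to 3 for lysine and choline, 1 to 2 for fatty aldehydes, 4 to 9 for NRF2 and AHR and 1 for surface markers. The direction turned with 1 library left out for ALDH2 (-0.17 without control shRNA replicate 2 to 0.0087 without control shRNA replicate 3), for ALDH1L1 (-0.12 without control shRNA replicate 3 and -0.10 without LYCAT shRNA replicate 3, up to 0.61 without control shRNA replicate 2) and for ALDH18A1 (-0.030 without LYCAT shRNA replicate 3 and -0.023 without control shRNA replicate 2, up to 0.095 without LYCAT shRNA replicate 1); none of these passed. The cause of these changes was not tested, beyond the fewer libraries fitted where some were left out.

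By coding length, the order in control cells was ALDH3A2 (1), ALDH9A1 (2), ALDH2 (3), ALDH7A1 (4), ALDH1B1 (5) and ALDH3A1 (6). As shares of deposited counts not divided by length, ALDH3A2 made up 25.6%, ALDH9A1 21.4%, ALDH2 18.6%, ALDH7A1 15.2%, ALDH1B1 10.5%, ALDH3A1 5.28%, ALDH3B1 1.74% and ALDH4A1 0.972% in control cells. Coding lengths were those of GENCODE; the planned lengths from RefSeq proteins were not run.

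Replicate numbers are shared by the groups, but same-numbered libraries did not deviate together (correlations 0.01, -0.06 and -0.05). With the replicate block 1044 genes were higher and 1002 lower, and of the described genes 2 were higher and 2 lower. Of the superfamily and pathway genes recomputed under each setting, NFE2L2 alone lost its call under the block (edgeR adjusted p = 0.0524). Genes of few counts, such as ALDH1A1 and ALDH4A1, are limited by depth.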
